A study of Homo sapiens with 6 samples.

Results

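The genes described here are 9 members of the NF-kB and innate immune response of the airway epithelium, namely NFKBIA, NFKB1, TNFAIP3, CXCL8, CXCL1, CCL20, LCN2, SAA1 and ICAM1. Binding at these genes was read from the ChIP-seq peak lists of 2 transcription factors, KLF5 and CEBPB. A peak was counted at a gene when its midpoint lay within 50 kb of the gene's span on hg19, given to the nearest kb. This rule kept 63 of the 74158 deposited peaks. They were 3 of 1510 peaks for KLF5 in Calu-3, 4 of 3262 for KLF5 in 16HBE14o- and 56 of 69386 for CEBPB in Calu-3. The genes were selected on their function with the positions and signals of the peaks in these lists already known, so the number of peaks at them is a description and was not tested.

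Calu-3 is a human bronchial epithelial line grown out of a lung cancer. The other line, 16HBE14o-, consists of immortalised human bronchial epithelial cells. There were 6 samples, and the authors combined the 2 of each group into 1 peak list, so no value below has a replicate error. All cells were untreated and grown in DMEM with 10% fetal bovine serum, without any inflammatory stimulus named in the labels. A rabbit antibody against KLF5 was used for replicate 1 of Calu-3, whereas replicate 2 of Calu-3 and both 16HBE14o- replicates shared 1 commercial antibody. Cell line and antibody therefore cannot be told apart in full. Peak lists carry no expression values, so neither the bronchial identity of the lines nor the activity of the 9 genes could be checked.

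NF-kB is a family of transcription factors that IkB proteins hold in the cytoplasm until an inflammatory signal has them degraded. Once in the nucleus it switches on chemokines, adhesion molecules and antimicrobial proteins together with its own inhibitors, which end the response. C/EBP factors such as CEBPB, which bind DNA through a basic leucine zipper, act beside NF-kB at many acute phase and cytokine genes. KLF5 is a zinc finger factor of epithelia that binds GC-rich and CACCC elements.

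The promoters below are those of the genes with a KLF5 peak summit within 1 kb of the gene's start in at least 1 line, followed by CXCL8, which had no peak of any list over its gene. Each run holds the 250 bases before the RefSeq start on GRCh38.p14. Because the peaks are on hg19, they were not placed within these bases. Capitals mark matches to the C/EBP motif TTGCNNAA, the KLF motif GGGNGNGG or the NF-kB consensus on either strand. The bases are at chr14:35404750-35404999 on the minus strand for NFKBIA, and on the plus strand at chr6:137867009-137867258 for TNFAIP3, chr9:128149203-128149452 for LCN2 and chr4:73740319-73740568 for CXCL8.
NFKBIA: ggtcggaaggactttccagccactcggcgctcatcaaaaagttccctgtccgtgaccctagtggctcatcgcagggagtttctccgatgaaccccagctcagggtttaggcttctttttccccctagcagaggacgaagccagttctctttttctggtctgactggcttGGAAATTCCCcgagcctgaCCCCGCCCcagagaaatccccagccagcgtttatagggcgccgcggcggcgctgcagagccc
TNFAIP3: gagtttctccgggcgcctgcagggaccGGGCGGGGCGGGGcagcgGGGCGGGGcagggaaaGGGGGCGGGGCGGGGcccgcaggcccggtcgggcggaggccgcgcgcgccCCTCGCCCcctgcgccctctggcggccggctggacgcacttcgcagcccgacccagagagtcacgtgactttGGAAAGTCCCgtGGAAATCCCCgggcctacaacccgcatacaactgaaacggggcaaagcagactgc
LCN2: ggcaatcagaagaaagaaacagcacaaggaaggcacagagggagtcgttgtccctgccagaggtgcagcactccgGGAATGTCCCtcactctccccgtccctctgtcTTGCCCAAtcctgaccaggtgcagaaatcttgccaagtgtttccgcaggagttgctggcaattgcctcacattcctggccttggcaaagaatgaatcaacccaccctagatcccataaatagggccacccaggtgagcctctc
CXCL8: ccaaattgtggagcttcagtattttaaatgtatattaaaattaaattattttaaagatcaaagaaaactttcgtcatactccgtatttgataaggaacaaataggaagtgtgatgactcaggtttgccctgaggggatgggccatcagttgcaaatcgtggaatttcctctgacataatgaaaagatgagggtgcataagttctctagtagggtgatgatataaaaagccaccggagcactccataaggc

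Of the 9 genes, 8 were found in the RefSeq promoter table, all but SAA1. A gene was counted when any of its promoters held a match, while the shares of all promoters count every entry singly. NFKB1 had a further promoter entry, beginning at chr4:102501684, which held a KLF match and no NF-kB match. A match to the NF-kB consensus was present in 6 of these 8, in NFKBIA, NFKB1, TNFAIP3, CXCL1, CCL20 and LCN2, while 5.21% of the 35116 promoters in the table held one. The genes were chosen as members of the NF-kB response, so this contrast is a description and was not tested. The KLF motif was found in 5 of the 8, against 53.4% of all promoters, and TNFAIP3 had 7 matches, several of them overlapping. LCN2 alone held the C/EBP motif, with the match beginning 143 bases before the start, and 9.05% of all promoters had it. In LCN2 the NF-kB match began 175 bases before the start, and in NFKBIA the NF-kB match at 81 bases stood upstream of the KLF match at 62 bases. CXCL8 had an AP-1 motif, TGANTCA, 137 bases before its start, and a TATA box 31 bases before it. Neither was particular to CXCL8. The AP-1 motif was found in 2 of the 8, the other being LCN2, against 6.57% of all promoters. A TATA box was found in 4 of the 8, also in NFKBIA, CCL20 and ICAM1, against 10.7% of all promoters. A missing match says only that these letters were not in the window.

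KLF5 was listed at 3 of the 9 loci in Calu-3 and at 3 of 9 in 16HBE14o-, and in both lines these were NFKBIA, TNFAIP3 and LCN2. Only at NFKBIA did both lines have KLF5 at the same site. All 9 loci had CEBPB. For scale, 3.95% of 29971 bins of 100 kb along the genome held a Calu-3 KLF5 peak, 7.26% a 16HBE14o- KLF5 peak, 75.1% a CEBPB peak and 1.48% a peak of all 3 lists. The windows around the genes measured 102 to 217 kb, so they are wider than the bins, and a CEBPB peak at every locus is not far from that background. Of the remaining 6 loci, none had KLF5 in either list. At unknown sequencing depth, a site missing from a list does not show that the factor was absent.

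**Figure D1:**
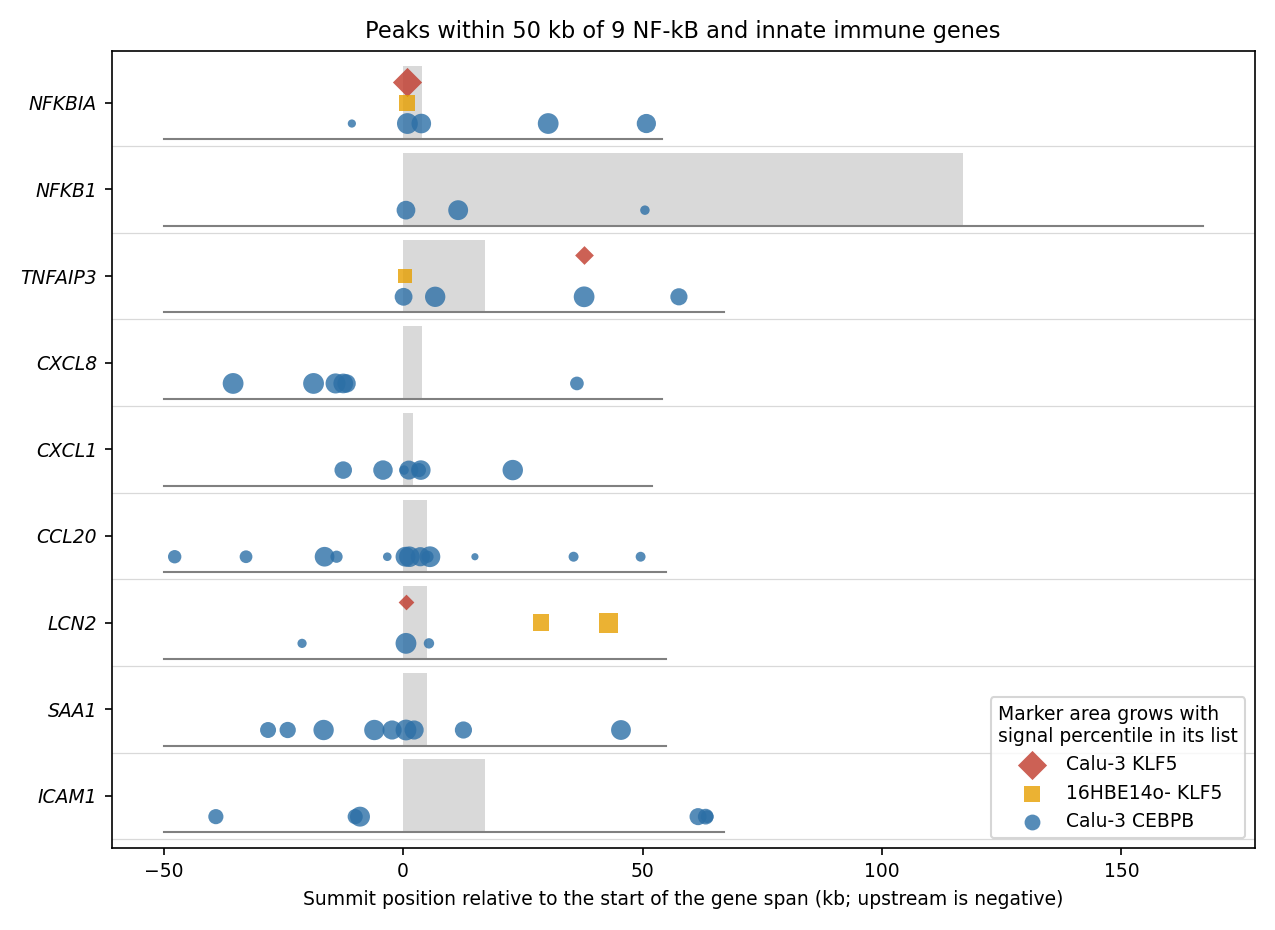
Summit positions of the 63 peaks, in kb from the start of each gene span and in the direction of transcription. Grey blocks are the spans, grey lines the windows, and marker area grows with the signal percentile within the peak's own list. KLF5 markers appear at NFKBIA, TNFAIP3 and LCN2 only, and CEBPB markers at all 9 loci.

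Of the 3 Calu-3 KLF5 peaks at these genes, the one at NFKBIA had the highest signal (71.2), above TNFAIP3 (24.1) and LCN2 (21.8). Of the 4 in 16HBE14o-, the highest (49.0) lay downstream of LCN2. The rest were close to each other, at 32.6 (LCN2), 30.3 (NFKBIA) and 29.2 (TNFAIP3). NFKBIA encodes IkB-alpha, the inhibitor that NF-kB itself induces. Its Calu-3 KLF5 peak at chr14:35872942-35873221 had a signal of 71.2, which is rank 30 of 1510 and percentile 98.1 of that list. The 16HBE14o- KLF5 peak at chr14:35873000-35873343 had a signal of 30.3, rank 1603 of 3262 and percentile 50.9. The Calu-3 CEBPB peak at chr14:35872924-35873431 had a signal of 32.4, rank 18 of 69386 and percentile 99.98. Signals and scores are the authors' own and are ranked within 1 list only. The site thus stood near the top of both Calu-3 lists and at the middle of the 16HBE14o- list.

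All 3 summits at NFKBIA lay inside the gene's span, 0.8 to 0.9 kb from its start. Spans are given to the kb, so here and below a peak within 1 kb of a span's edge cannot be placed inside or outside the gene itself. The Calu-3 KLF5 and CEBPB summits were 1 bp apart, and the Calu-3 and 16HBE14o- KLF5 summits were 90 bp apart. Over all overlapping pairs the median summit distance was 30 bp between Calu-3 KLF5 and CEBPB and 35 bp between the KLF5 lists. A second strong CEBPB peak, at percentile 99.3, lay 30.3 kb downstream of the NFKBIA start and had no KLF5. The remaining 3 CEBPB peaks of this locus ranked between percentile 6.15 and 87.3. No other coding gene lies within 50 kb of NFKBIA in RefSeq.

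TNFAIP3 encodes A20, a ubiquitin-editing enzyme that shuts off NF-kB signalling. The Calu-3 KLF5 peak at chr6:138225686-138225965 lay 37.8 kb downstream of the gene's start, beyond its end, with a signal of 24.1 and a percentile of 34.0. A CEBPB peak of percentile 98.9 (signal 14.2) overlapped this site, with summits 17 bp apart. The 16HBE14o- KLF5 peak at chr6:138188241-138188584 lay at the other end of the locus, 0.4 kb from the start of the span, with a signal of 29.2 and a percentile of 46.0. It overlapped neither Calu-3 list. A CEBPB peak of percentile 70.2 had its summit 0.1 kb from the start without reaching the 16HBE14o- peak, and another of percentile 94.7 lay 6.7 kb into the gene. The lines therefore listed KLF5 at different ends of the TNFAIP3 locus.

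NFKB1 encodes the precursor of a DNA-binding subunit of NF-kB. It had no KLF5 peak in either list, the nearest Calu-3 one being 402 kb away, although its window was the widest at 217 kb. Its 3 CEBPB peaks all lay inside the gene's span, at 0.6, 11.5 and 50.5 kb from the start, with percentiles of 78.7, 89.9 and 11.9. It was the only one of the 9 loci without a CEBPB peak in the top 10% of the list by signal.

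LCN2 encodes lipocalin 2, which starves bacteria of iron by binding their siderophores. The Calu-3 KLF5 peak at chr9:130911465-130911744 lay 0.6 kb from the gene's start, with a signal of 21.8, rank 1202 of 1510 and percentile 20.5. The CEBPB peak over it, at chr9:130911459-130911775, had a signal of 24.1, rank 97 of 69386 and percentile 99.9, and the summits were 15 bp apart. The site thus ranked high within the CEBPB list and low within the Calu-3 KLF5 list. The lists differ greatly in length, so these percentiles do not compare the binding of the factors. In 16HBE14o- no KLF5 peak was listed there, and the 2 KLF5 peaks of that line lay 28.8 and 42.9 kb downstream of the start, with percentiles of 61.6 and 90.3. Neither overlapped a peak of a Calu-3 list. In RefSeq 5 other coding genes lie within 50 kb of LCN2, among them CIZ1 and DNM1, and the downstream peaks were not assigned to any of them.

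**Figure D2:**
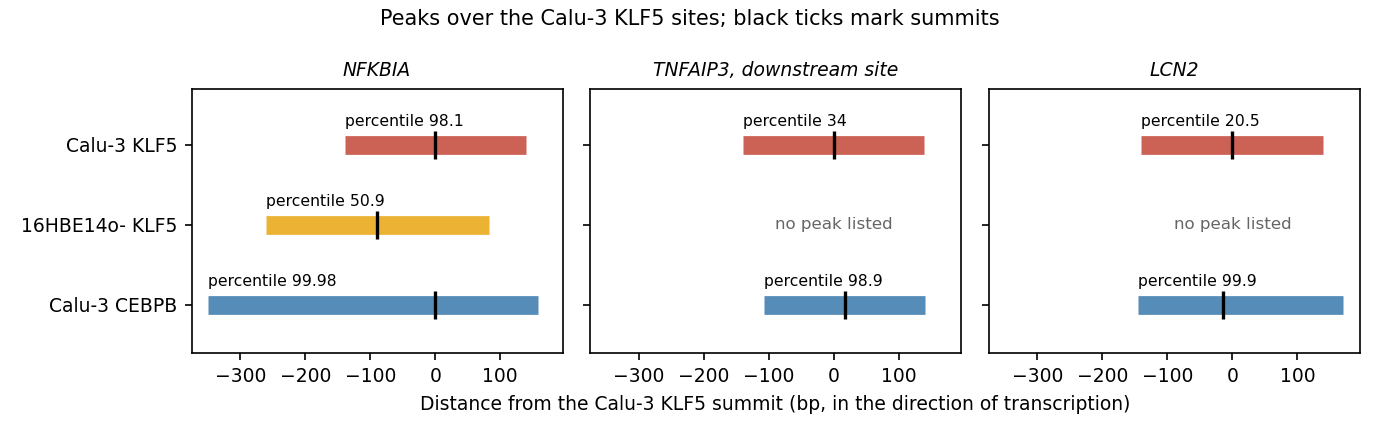
Extent of the peaks over each of the 3 Calu-3 KLF5 sites, in bp from the Calu-3 KLF5 summit and in the direction of transcription, with summits as black ticks. A CEBPB peak overlaps each site with its summit 1 to 17 bp from the KLF5 summit, and a 16HBE14o- KLF5 peak appears at NFKBIA only.

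All 3 Calu-3 KLF5 peaks at these genes carried a CEBPB peak (100%, exact 95% confidence interval 29.2 to 100), and 43.7% of the whole Calu-3 KLF5 list did. The CEBPB peaks concerned ranked between percentiles 98.9 and 99.98, while the KLF5 peaks ranged from percentile 20.5 to 98.1. In 16HBE14o- 1 of 4 KLF5 peaks overlapped a Calu-3 CEBPB peak (25%, 0.631 to 80.6), against 22.4% of that list. Between the lines, 1 of 3 Calu-3 KLF5 peaks was shared with 16HBE14o- (33.3%, 0.84 to 90.6), against 23.6% of the list. Likewise 1 of 4 16HBE14o- peaks was shared with Calu-3 (25%, 0.631 to 80.6), against 11.3% of the list. The NFKBIA site was the 1 of the 3 Calu-3 KLF5 peaks that both other lists overlapped, as they did for 9.47% of that list. With so few peaks, each of these intervals, which cover counting error only, includes the share of the whole list, and no difference was tested.

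All KLF5 peaks at the 9 genes had a q-value of 0.05 or less, which held for 86.6% of all Calu-3 KLF5 peaks and for 78.9% of all 16HBE14o- ones. In Calu-3 the q-value was 0.00075 at NFKBIA, 0.011 at TNFAIP3 and 0.031 at LCN2, in the order of their signals. In 16HBE14o- it was 0.011 at NFKBIA, 0.016 at TNFAIP3, and 0.0087 and 0.0041 at LCN2. The Calu-3 scores were 1000, 766 and 622 at NFKBIA, TNFAIP3 and LCN2, in a list running from 540 to 1000. By signal, q-value and score the 3 Calu-3 sites stood in the order NFKBIA, TNFAIP3 and LCN2, but these measures describe the same peak calls. The 16HBE14o- scores were 1000 at NFKBIA, 969 at TNFAIP3, and 934 and 1000 at LCN2, which was not the order of signal.

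The highest CEBPB peak of each chemokine locus lay outside the gene span as given to the kb. At CCL20 its midpoint was only 0.6 kb beyond the span, too close to be placed inside or outside the gene. CXCL8 encodes interleukin 8, the main attractant of neutrophils from airway epithelium. It had 6 CEBPB peaks and none over the gene. The highest were at chr4:74587193-74587443, 18.7 kb upstream (signal 20.6, percentile 99.7), and at chr4:74570327-74570587, 35.5 kb upstream (signal 19.8, percentile 99.6). Between 11.8 and 14.1 kb upstream lay 3 further peaks with percentiles of 91.9, 88.3 and 75.2. The only peak downstream, at 36.3 kb, was at percentile 36.8. CEBPB at CXCL8 was thus listed almost wholly on the upstream side.

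CCL20 encodes the ligand of CCR6, which draws dendritic cells and lymphocytes to epithelia. With 13 CEBPB peaks it had the most of any of the 9 loci. The highest, at chr2:228683315-228683826, lay 5.6 kb from the start and just beyond the end of the gene's span (signal 17.3, percentile 99.4). The next, 1.3 kb into the gene, was at percentile 97.3, and another, 0.5 kb from the start, was at percentile 89.7. A q-value of 0.05 or less was given to 5 of the 13, against 46.3% of the whole CEBPB list, and the lowest peak was at percentile 2.11. The nearest 16HBE14o- KLF5 peak lay 110.0 kb upstream of CCL20, at percentile 90.4.

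CXCL1, another neutrophil chemokine, had 7 CEBPB peaks. The highest, at percentile 95.7 (signal 8.33), lay 22.9 kb from the start and downstream of the gene. A peak 1.2 kb from the start was at percentile 81.7, and one at 0.2 kb was at percentile 11.9 with a q-value of 0.41. The highest CXCL1 peak had a lower signal than the highest at CXCL8 and CCL20. CXCL6 and PF4V1, related chemokine genes, lie within 50 kb of CXCL1 in RefSeq, and how reads shared by such similar genes were assigned was not given in the sources used here.

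SAA1 encodes serum amyloid A, an acute phase protein. Its highest CEBPB peak, at chr11:18287501-18287787, lay 0.6 kb from the start (signal 20.2, percentile 99.7, rank 238). Of its 9 peaks, 3 were in the top 10%, the other two being 6.0 and 16.6 kb upstream at percentiles 94.8 and 94.9. None of the 9 was below percentile 54.3. A q-value of 0.05 or less was given to 7 of the 9, against 46.3% of the whole CEBPB list. The peaks at percentiles 54.3 and 56.8 had q-values of 0.087 and 0.07. SAA2, a near-identical copy of SAA1, lies next to it, and how reads that match both copies were assigned was not given in the sources used here. The peaks upstream of SAA1 were not assigned to either copy.

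ICAM1 encodes an adhesion molecule for leukocytes. Its 6 CEBPB peaks lay outside the gene, 3 upstream and 3 downstream. The highest was 9.0 kb upstream at percentile 90.7 (signal 5.57), and the others were at percentiles 30.6 to 63.7. In RefSeq 8 other coding genes lie within 50 kb of ICAM1, ICAM4, ICAM5 and ICAM3 among them. The nearest KLF5 peak of either line lay 855 kb downstream. ICAM1 thus had the lowest-ranked CEBPB maximum after NFKB1.

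**Figure D3:**
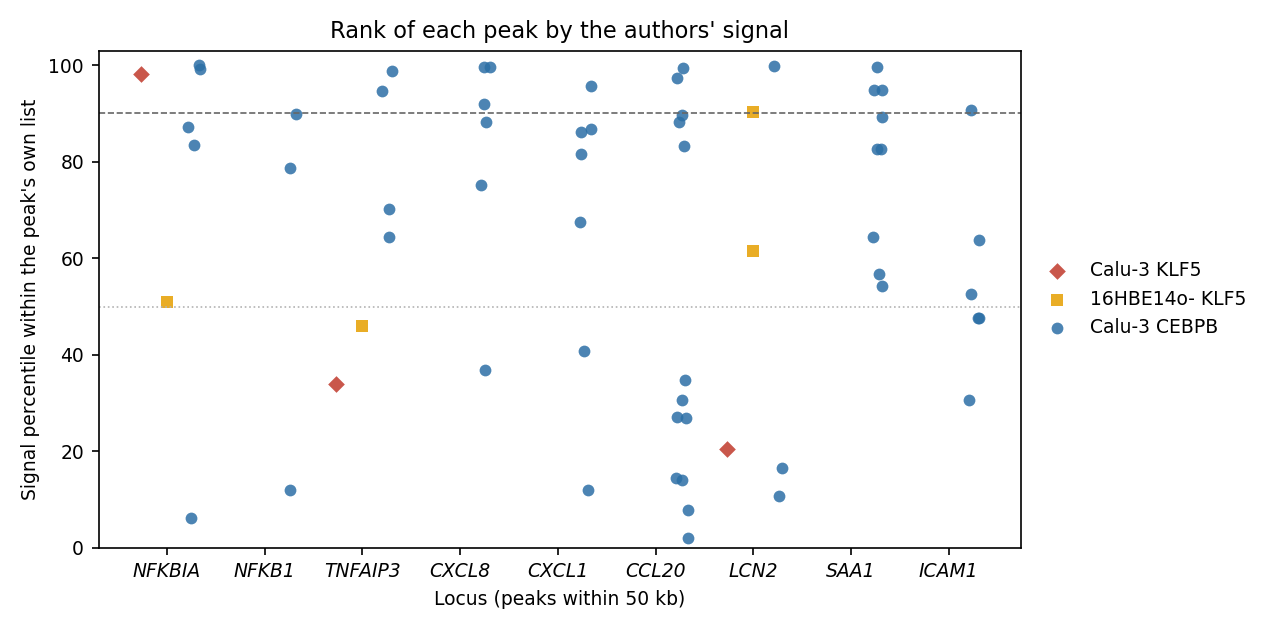
Signal percentile of each of the 63 peaks within its own list, by locus, with a dashed line at percentile 90 and a dotted line at percentile 50. NFKBIA has the highest Calu-3 KLF5 and CEBPB peaks, while at LCN2 the CEBPB peak is at percentile 99.9 and the Calu-3 KLF5 peak at 20.5.

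Ordered by their highest CEBPB peak, the loci ran NFKBIA (signal 32.4), LCN2 (24.1), CXCL8 (20.6), SAA1 (20.2), CCL20 (17.3), TNFAIP3 (14.2), CXCL1 (8.33), ICAM1 (5.57) and NFKB1 (5.43). Without replicate lists it is not known which neighbours in this order differ beyond their spread. The list itself had a median signal of 3.17 and a maximum of 61.3.

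Over the 9 loci, 15 of the 56 CEBPB peaks were in the top 10% of the list by signal (26.8%, 15.8 to 40.3), against 10.0% of all CEBPB peaks. In the top 1% there were 7 (12.5%, 5.18 to 24.1), against 1.00% of the list, at NFKBIA, CXCL8, CCL20, LCN2 and SAA1. The median percentile was 80.2, and 38 of the 56 lay above percentile 50. Of the 15 in the top 10%, 5 were inside a gene span as given to the kb, 6 upstream and 4 downstream. A q-value of 0.05 or less was given to 35 of the 56 (62.5%, 48.5 to 75.1), against 46.3% of the list. These intervals treat the peaks of a locus as independent, which neighbouring peaks may not be. The loci were chosen with such peaks known, so these shares do not show that innate immune genes as a group carry stronger CEBPB sites.

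**Figure D4:**
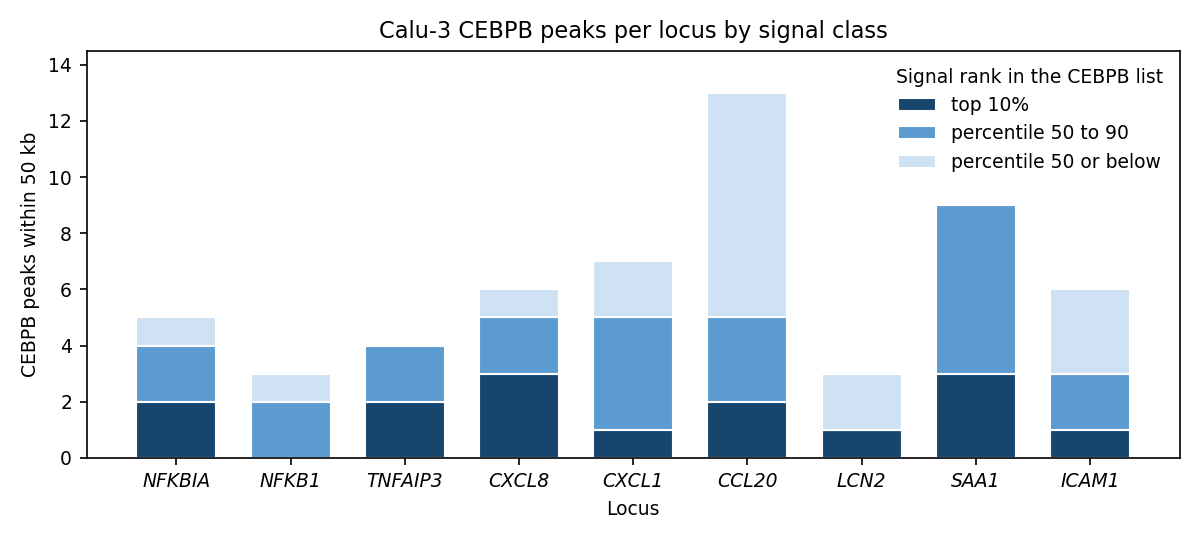
Number of Calu-3 CEBPB peaks within 50 kb of each gene, stacked by signal class within the CEBPB list. CCL20 has the most with 13, of which 2 are in the top 10%, and CXCL8 and SAA1 have 3 in the top 10% each.

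Of the 56 CEBPB peaks, 3 overlapped Calu-3 KLF5 (5.36%, 1.12 to 14.9), against 0.938% of the list, and 1 overlapped 16HBE14o- KLF5 (1.79%, 0.0452 to 9.55), against 1.03% of the list. The loci were chosen with these peaks known, and the intervals treat neighbouring peaks of a locus as independent. No enrichment can be read from these shares. Among the 15 in the top 10%, 3 overlapped a Calu-3 KLF5 peak, the sites at NFKBIA, TNFAIP3 and LCN2, while 6.14% of all 6940 top CEBPB peaks did. The remaining 12 overlapped KLF5 of neither line, and 2 of these lay at NFKBIA and TNFAIP3 themselves, at percentiles 99.3 and 94.7. In the top 1%, 2 of the 7 overlapped Calu-3 KLF5, at NFKBIA and LCN2, against 23.3% of the 696 such peaks in the list. At NFKB1, the chemokines, SAA1 and ICAM1, CEBPB was listed without KLF5.

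The limit of 50 kb lay among CEBPB peaks. The 5 peaks just inside it were 44.6 to 47.7 kb from a span, at percentiles 14 to 83.4, and the 5 just outside were 50.3 to 56.5 kb away, at percentiles 15.8 to 93.0. The outermost KLF5 peak inside the limit was 37.9 kb from LCN2, and the next KLF5 peak beyond it was a 16HBE14o- peak 68.5 kb from NFKBIA at percentile 66.1.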

How the data were processed

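The members and lists were chosen with earlier results of these data known. Binding was measured by ChIP-seq. Per the series' design text, each deposited list was made by the authors from both samples of a group. The genome build was hg19, as stated in the headers and in the submitters' processing notes. Per the file headers, all lists passed the irreproducible discovery rate (IDR) procedure, and those of KLF5 are its optimal set. The sources used here do not give the aligner, peak caller, filters or control library. Every peak has a deposited signal value whose normalization is not stated, a deposited −log10 q-value and, for KLF5, a deposited score. Depth is unknown.

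Gene spans on hg19 were given to the kb. Distances run from the summit to the end of the span where the gene starts, so they are accurate to about 1 kb. Gene strands came from the RefSeq promoter table, except that SAA1 was taken as plus. Peaks overlapped when they shared at least 1 bp. Percentiles are ranks of the signal within 1 list. Shares have exact (Clopper-Pearson) 95% intervals, which cover counting error only. No test between groups was made. Named were all 9 loci, every KLF5 peak, the CEBPB peaks over them and the highest CEBPB peak of each locus, with others as examples. Of the planned counts at further NF-kB genes none was made, since no hg19 gene annotation was used here. Motifs were searched in the 250 bases before each start on both strands. Neighbouring genes are named and counted from RefSeq positions on GRCh38.p14, within 50 kb of the gene on that build. They were not placed against the hg19 windows of the peaks. Window counting and overlaps were tested on simulated data. Alternatives varied the window, the placing of peaks, the thresholds, merging, the overlap rule and the ranking. Python 3.11.15, numpy 2.4.6, scipy 1.17.1 and pandas 2.3.3 were used.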

Additional observations from a re-analysis of the deposited data

How the results depend on the processing

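The values were recomputed 78 times under 9 alternatives, and 71 stayed within 1.5 times the reported count or within the interval of the reported value. For the KLF5 medians that interval was the range of the same few peaks. The intervals of the KLF5 overlap shares were as wide as 0.84 to 90.6, so staying within them says little. With the 50% of each list of higher signal, only the NFKBIA peak was left for Calu-3 KLF5, giving 1 peak, a median percentile of 98.1 and a share of 100% overlapped by 16HBE14o- KLF5. The same filter gave a median CEBPB percentile of 88.3. With a q-value of 0.05 or less, 35 CEBPB peaks were left, with a median percentile of 89.3 and 42.9% in the top 10%. These filters remove weak peaks by construction. Windows of 25 and 100 kb gave 41 and 77 CEBPB peaks, 3 and 3 Calu-3 KLF5 peaks, and 3 and 5 16HBE14o- KLF5 peaks. Every setting left all Calu-3 KLF5 peaks at these loci with a CEBPB peak. No paired analysis was possible because each list combines both replicates of its group. For the same reason no replicate could be left out, and unknown depth limits what the absence of a peak can show.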

Other observations

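CEBPB peaks were spaced differently along the 9 loci. At CXCL1, 7 peaks spanned 35.4 kb, with a median gap of 3.3 kb between neighbouring summits, whereas at NFKB1 3 peaks spanned 49.9 kb. The NFKB1 window was 217 kb wide and that of CXCL1 102 kb. The shortest extent was at LCN2, where 3 peaks spanned 26.5 kb. The closest neighbours were at ICAM1, with summits 0.33 kb apart. ICAM1 also had the smallest median gap of the 9 loci, 1.6 kb, although its 6 peaks spanned 102.6 kb. The density over all windows was 5.2 CEBPB peaks per 100 kb, against 2.32 per 100 kb of the genome bins, for loci that were chosen with the lists known. For KLF5 the same chosen loci held 3 peaks in Calu-3, or 0.279 per 100 kb, against 0.0504 genome-wide. In 16HBE14o- they held 4 peaks, or 0.372 per 100 kb, against 0.109 genome-wide. The bins cover each chromosome from its first to its last peak, and no background of windows around other genes was made. The nearest Calu-3 KLF5 peak to the CXCL8 and CXCL1 genes lay 153 kb downstream of CXCL1, at percentile 32.8.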
